A study of Rattus norvegicus with 4 samples.

Results

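The SLC25 genes encode the mitochondrial carriers, a family of membrane proteins that exchange nucleotides, phosphate, organic acids, amino acids and cofactors across the inner membrane of the mitochondrion. Members were the rat genes whose RefSeq symbol begins with Slc25a and a number, and they were followed through every non-control probe that carried an accession of 1 of their transcripts. The rule took 84 symbols, 53 of them protein-coding and 31 pseudogenes. Of these, 40 had a probe, all of them protein-coding, out of 16581 named genes with a probe on the array. The 40 genes were read by 57 probes, and 11 of them had more than 1 probe. The 13 protein-coding members without a matched probe included Slc25a6, Slc25a12, Slc25a13, Slc25a26, Slc25a31, Slc25a36, Slc25a40, Slc25a48, Slc25a52 and the like-named copies Slc25a5l1, Slc25a36l1 and Slc25a51l1, and none of the 31 pseudogenes was matched.

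The samples were 4 biological replicates of NR8383 cells, a continuous line of alveolar macrophages first obtained by washing the lung of a normal rat. All had been through 20 passages, were seeded for 48 h and then received carbon black Printex 90, a powder of carbon nanoparticles, at 0.9 cm² of particle surface per cm² for 4 h, as far as the labels give the dose. Each replicate was hybridised to its own 1-colour Agilent array. Cells kept without particles were not analysed here. The values are therefore levels and spreads in exposed cells, and no effect of carbon black is given.

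A carrier of this family sits in the inner membrane, where it swaps a metabolite of the matrix for one of the space outside, and so decides which substrates the citric acid cycle, oxidative phosphorylation and the enzymes of the matrix can reach. ADP/ATP carriers and the phosphate carrier feed the ATP synthase. In macrophages, the export of citrate from mitochondria supplies acetyl units for lipid synthesis, and the carriers of aspartate, glutamate, malate and oxoglutarate form the shuttles that move reducing equivalents.

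A level below is the log2 of a probe's intensity minus the 75th percentile of all probes on the same array, so that 0 is that percentile. It is given as mean ± SD over the 4 arrays, and only 4 arrays limit the precision of each SD. Levels of different genes are not compared, because each probe binds its target with a strength of its own. Of each array's 45598 probes, between 37.5% and 40.9% were well above background by the mark of the scanner software, and the 75th percentile itself lay at an intensity of 109, 93.7, 63.7 and 63.8 on replicates 1 to 4. Markers of alveolar macrophages were well above background on all 4 arrays for 8 of 11 genes with a probe, among them Cd68 and Spi1. The other 3 genes of that alveolar macrophage list, Marco, Adgre1 and Car4, were so on no array. Of 16 markers of alveolar type 2 cells, other epithelium, fibroblasts, endothelium, T cells and B cells, 0 were above it on any array. In such bulk RNA, fewer cells of a type and less RNA per cell cannot be told apart.

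Most carriers had signal. Of the 40 members, 25 (62.5%) were well above background on all 4 arrays. A further 4 were so on 1 to 3 arrays, and 11 were on no array. Over all 16581 named genes with a probe the share on all arrays was 48.0%, and over the 16095 protein-coding ones 49.0%. On no array were 43.0% of the protein-coding genes. No probe of a member was saturated, and none lacked a value on any array. The 11 members without signal have only a bound for their level, and a missing mark speaks for these probes and not for the transcripts. By another mark of the software, positive and significant signal, 30 members were detected on all arrays. That is more than were well above background on any array, so "without signal" means here only without the mark used.

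The line between carriers with and without signal ran through some pairs of related carriers. The pairs below are named because they were divided, and other relatives, such as Slc25a4 and Slc25a5, were marked alike. Slc25a22, the main mitochondrial glutamate carrier, was well above background on all arrays and its brain-type relative Slc25a18 on none. The ornithine carriers Slc25a15 and Slc25a2 were divided the same way. For Slc25a22 and Slc25a15 the call of signal rests on 1 probe, as given below. Also divided were the iron importers Slc25a28, known as mitoferrin 2, and Slc25a37, mitoferrin 1, which is known for its role in red cell precursors. Slc25a37 was dim and unmarked, with levels of -3.12, -3.06, -2.51 and -2.2 on replicates 1 to 4. The lowest level of any marked probe was below that on each array, at -3.36, -3.88, -3.06 and -3.47. Its missing mark is therefore a near call. Slc25a2 was also above that lowest level on replicates 3 and 4, at -2.67 and -3.17, but not on replicates 1 and 2. Among the calcium-regulated exchangers of ATP-Mg for phosphate, Slc25a24 and Slc25a25 had signal on all arrays. Slc25a23 and their relative Slc25a41 had signal on none. On replicate 1 alone, Slc25a23 stood above the lowest marked level, at -3.01. Slc25a14 and Slc25a30 had signal and Slc25a27, all relatives of the uncoupling proteins, had none on any of its 4 probes.

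The promoters of these genes are shown for the widely detected ADP/ATP carrier Slc25a5, for the phosphate carrier Slc25a3, whose level differed most between arrays among carriers with signal on all of them, and for 3 pairs of relatives in which 1 had signal and the other did not. They are RefSeq sequences of build GRCr8, from 250 bases before to 50 after 1 annotated start of the gene, written 5′ to 3′ with every CG dinucleotide in capitals.
Slc25a5, well above background on all arrays, chrX:120897366-120897665, plus strand: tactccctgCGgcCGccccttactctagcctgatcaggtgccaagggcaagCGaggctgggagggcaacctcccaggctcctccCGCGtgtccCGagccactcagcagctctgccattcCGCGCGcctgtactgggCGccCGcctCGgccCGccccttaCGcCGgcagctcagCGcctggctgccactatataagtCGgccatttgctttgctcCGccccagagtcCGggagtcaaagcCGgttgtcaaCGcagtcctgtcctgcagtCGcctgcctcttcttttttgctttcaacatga
Slc25a3, well above background on all arrays, chr7:27506578-27506877, minus strand: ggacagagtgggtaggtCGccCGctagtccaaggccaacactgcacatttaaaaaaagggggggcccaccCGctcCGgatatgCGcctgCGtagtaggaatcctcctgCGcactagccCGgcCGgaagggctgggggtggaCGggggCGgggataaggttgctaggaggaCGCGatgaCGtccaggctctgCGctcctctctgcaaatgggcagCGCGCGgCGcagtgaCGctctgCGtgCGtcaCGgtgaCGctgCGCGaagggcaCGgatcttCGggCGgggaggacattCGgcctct
Slc25a22, well above background on all arrays, chr1:205965828-205966127, minus strand: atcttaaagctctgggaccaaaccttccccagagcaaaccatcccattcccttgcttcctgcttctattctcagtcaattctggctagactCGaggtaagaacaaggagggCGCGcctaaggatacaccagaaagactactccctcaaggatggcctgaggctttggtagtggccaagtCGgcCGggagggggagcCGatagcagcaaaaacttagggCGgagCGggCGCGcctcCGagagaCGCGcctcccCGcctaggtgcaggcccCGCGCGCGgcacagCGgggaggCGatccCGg
Slc25a18, on no array, chr4:155672919-155673218, plus strand: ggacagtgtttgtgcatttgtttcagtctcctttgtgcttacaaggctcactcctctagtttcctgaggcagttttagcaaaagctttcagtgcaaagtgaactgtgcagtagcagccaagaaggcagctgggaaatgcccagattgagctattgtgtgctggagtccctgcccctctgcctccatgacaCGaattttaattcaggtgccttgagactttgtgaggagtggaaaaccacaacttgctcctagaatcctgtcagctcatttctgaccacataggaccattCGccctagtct
Slc25a24, well above background on all arrays, chr2:199449175-199449474, plus strand: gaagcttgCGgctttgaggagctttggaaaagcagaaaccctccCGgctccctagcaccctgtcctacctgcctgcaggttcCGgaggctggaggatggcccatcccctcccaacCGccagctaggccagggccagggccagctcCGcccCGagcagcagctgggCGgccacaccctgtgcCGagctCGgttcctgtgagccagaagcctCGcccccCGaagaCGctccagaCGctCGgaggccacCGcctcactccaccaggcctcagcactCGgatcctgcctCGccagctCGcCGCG
Slc25a41, on no array, chr9:1968339-1968638, minus strand: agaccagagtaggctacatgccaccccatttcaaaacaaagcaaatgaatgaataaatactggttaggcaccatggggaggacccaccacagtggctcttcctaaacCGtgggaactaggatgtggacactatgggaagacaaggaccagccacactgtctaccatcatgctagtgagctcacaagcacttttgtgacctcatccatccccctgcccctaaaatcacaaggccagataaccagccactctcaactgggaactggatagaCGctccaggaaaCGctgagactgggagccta
Slc25a15, well above background on all arrays, chr16:76336620-76336919, plus strand: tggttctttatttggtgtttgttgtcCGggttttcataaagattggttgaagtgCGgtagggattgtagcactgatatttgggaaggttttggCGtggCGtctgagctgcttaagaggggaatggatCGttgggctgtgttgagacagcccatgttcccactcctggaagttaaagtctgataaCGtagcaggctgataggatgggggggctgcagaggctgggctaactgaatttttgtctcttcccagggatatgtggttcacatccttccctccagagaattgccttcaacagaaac
Slc25a2, on no array, chr18:29707514-29707813, minus strand: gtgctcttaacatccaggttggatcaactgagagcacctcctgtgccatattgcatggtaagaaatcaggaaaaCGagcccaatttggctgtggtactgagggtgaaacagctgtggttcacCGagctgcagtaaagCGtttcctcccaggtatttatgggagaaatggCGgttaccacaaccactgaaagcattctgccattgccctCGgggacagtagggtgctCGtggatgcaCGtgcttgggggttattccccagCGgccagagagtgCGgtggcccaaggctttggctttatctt
The promoters of Slc25a5, Slc25a3, Slc25a22 and Slc25a24 held 22, 30, 21 and 20 CG dinucleotides, against 2 in that of Slc25a18 and 3 in that of Slc25a41. The ornithine carriers ran the other way, with 6 in Slc25a15, which had signal, and 9 in Slc25a2, which had none. Slc25a23, the other relative of Slc25a24 without signal, held 17, and Slc25a25, with signal, 9. Slc25a14, with signal, held 17 and Slc25a27, without, 15. For 15 of the 35 carriers in the table the start used is the outer end of the annotated gene, as in Slc25a5, Slc25a24 and Slc25a2. For the other 20 it lies 23 to 23231 bases inside the gene, and so part or all of the window does too. That distance is 58 bases in Slc25a3, 311 in Slc25a22, 230 in Slc25a18, 23 in Slc25a41, 2833 in Slc25a15 and 23231 in Slc25a25.

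Of the 40 members, 35 had a promoter in the RefSeq table. The 21 carriers with signal on all arrays had a median of 22 CG dinucleotides per 300 bases, from 6 in Slc25a15 to 42 in Slc25a39. The 4 carriers with signal on some arrays had a median of 14.5. The 10 without signal had a median of 9, from 2 in Slc25a18 to 40 in Slc25a33, so the groups overlapped. With only the windows at the outer end of the gene, a choice made after seeing the data, the medians were again 22 (n = 9) and 9 (n = 5). Slc25a33 and Slc25a42, with 40 and 32, were as rich in CG as the detected carriers and had no signal. The same medians over all named protein-coding genes in the table were 21 for the 6636 with signal on all arrays and 6 for the 5504 with signal on none, the same order as in the carriers.

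**Figure D1:**
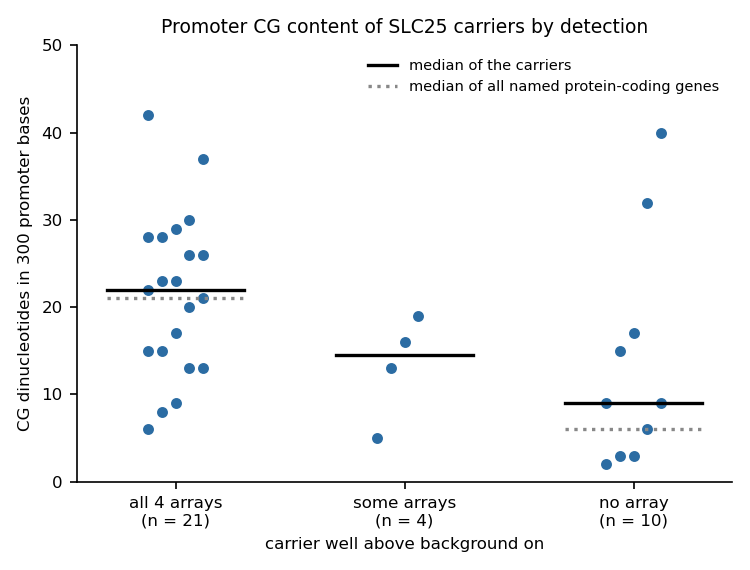
CG dinucleotides in the 300 promoter bases of each carrier (vertical axis, count), with 1 point per gene, by the number of arrays on which it was well above background. Solid bars are medians of the carriers (22, 14.5 and 9) and dotted bars are medians of all named protein-coding genes (21 on all arrays, 6 on none). The points of the first and last group overlap.

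Short strings known from promoters of mitochondrial genes were then counted on both strands of the same 300 bases. None of the strings contains another. The string CCGGAAG, the core bound by GABP, an ETS factor of many respiratory genes, was found in 6 of the 21 carriers with signal on all arrays (28.6%), which were Slc25a3, Slc25a4, Slc25a14, Slc25a17, Slc25a20 and Slc25a38. It was found in 1 of the 4 on some arrays, Slc25a54, and in 0 of the 10 without signal. Over all named protein-coding genes it was found in 21.1% of those with signal on all arrays, in 3.78% of those with none and in 8.75% of all 33469 promoters. The GC box GGGCGG was found in 18 of the 21 (85.7%), in 1 of the 4 on some arrays and in 6 of the 10 without signal (60.0%). It was found in 62.8% of named protein-coding genes with signal on all arrays, in 33.3% of those with none and in 33.1% of all promoters. The palindromic consensus of NRF1, another factor of respiratory genes, was in 0 of the 35 and in 0.852% of all promoters. A match is a stretch of letters and not a site shown to be bound.

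**Figure D2:**
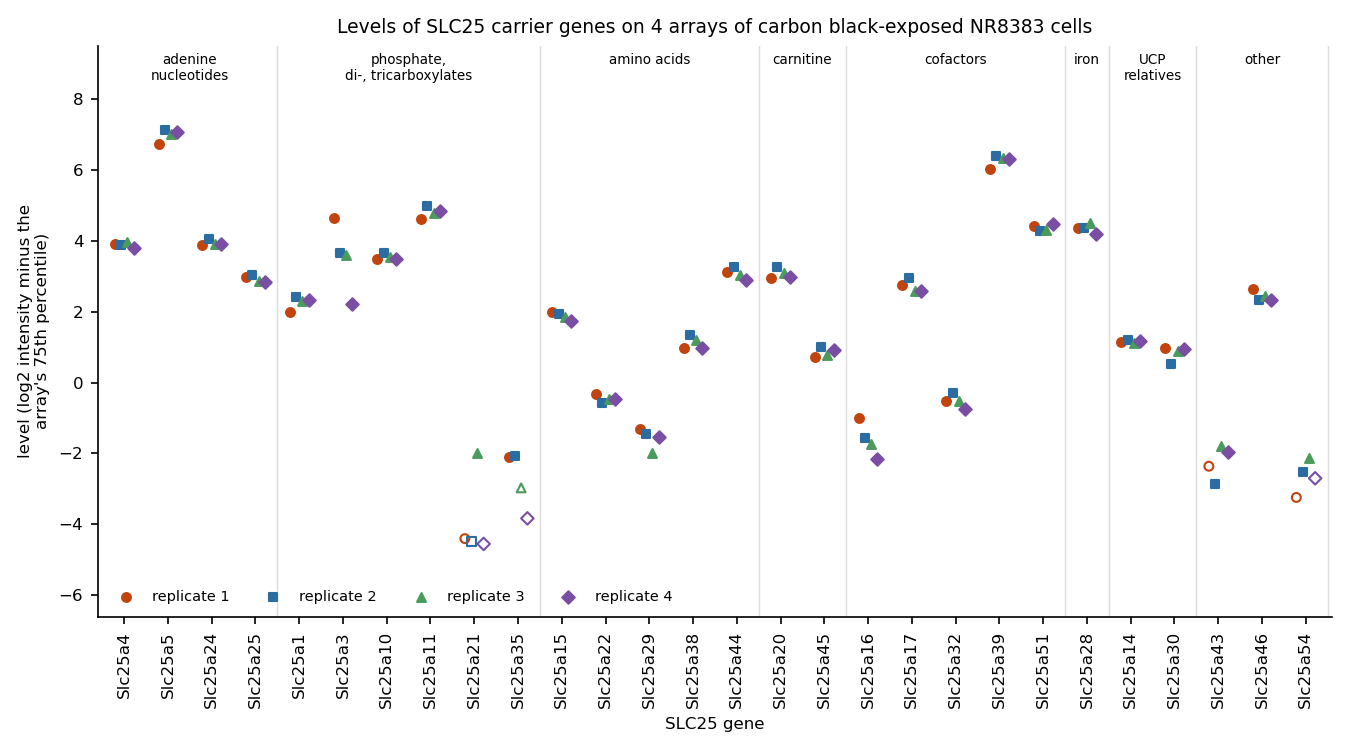
Level of 28 of the carriers well above background on at least 1 array (vertical axis, log2 intensity minus the array's 75th percentile), with 1 point per array and gene, grouped by substrate. Filled points were marked well above background and open points were not. Slc25a3 ran from 4.65 on replicate 1 to 2.20 on replicate 4, while the points of most other carriers lie close together. Heights of different genes cannot be compared.

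The ADP/ATP carriers, which swap matrix ATP for cytosolic ADP, were both detected where they had a probe. Slc25a4, the form known from heart and muscle, had levels of 3.90, 3.88, 3.96 and 3.78 on replicates 1 to 4. Its 4 arrays lay within 0.18 log2 units. Slc25a5, the form known from dividing cells, had levels of 6.71, 7.12, 7.01 and 7.07 (6.98 ± 0.18, SD, n = 4), with replicate 1 below the other 3. Its second probe had 6.10, 6.48, 6.37 and 6.32, again lowest on replicate 1. RefSeq lists 9 pseudogenes of Slc25a5 and the coding copy Slc25a5l1, and signal from such copies cannot be told apart from that of Slc25a5 here. Of the exchangers of ATP-Mg for phosphate, Slc25a25 had a level of 2.92 ± 0.094.

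Slc25a24, of the same group, was spotted 10 times on each array and so gives the error within an array. Its levels were 3.89, 4.05, 3.90 and 3.90 (3.94 ± 0.078, SD, n = 4), with replicate 2 apart from the other 3. The SD between its spots was 0.058, 0.044, 0.065 and 0.076 on the 4 arrays, so the error of each array's mean over its 10 spots was between 0.014 and 0.024. The SD of 0.078 between arrays was larger than that, but it depended on replicate 2 and on the scaling. Without replicate 2 the SD was 0.00976. With quantile normalization it was 0.0366, and with the percentile taken over detected probes 0.0359. On replicate 2 Slc25a24 deviated from its mean by 0.117, where the median over named genes with signal on all arrays was 0.085. Slc25a24 overlaps Slc25a54 in the RefSeq annotation. Slc25a54, to which no substrate is assigned here, had levels of -3.24, -2.53, -2.12 and -2.70 and was well above background on replicates 2 and 3, so its other values are bounds.

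The phosphate carrier Slc25a3, which brings in phosphate for ATP synthesis and is also known to carry copper, varied most among the 25 carriers with signal on all arrays. Its intensity was 2740, 1180, 769 and 292 on replicates 1 to 4, and its level 4.65, 3.66, 3.59 and 2.20. Replicate 1 was highest and replicate 4 lowest, 2.45 log2 units or 5.47-fold apart, with replicates 2 and 3 close to each other. The mean was 3.52 ± 1.01 (SD, n = 4). The spread passed a one-sided variance test against genes of like level (adjusted p = 0.0185 over 14927 genes and unnamed transcripts, limma), in which the prior SD at that level was 0.14. Of all those tested 0.462% passed, and of the 28 members tested Slc25a3 did and 27 did not. Not passing does not show that a carrier was steady, because with 4 arrays the test can call few genes unless their spread is far above the prior. At an unadjusted p under 0.05 the share was 5.07% of all those tested and again 1 of the 28 members. This result was known when the family was chosen, since an earlier look at these arrays had listed the gene.

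The call for Slc25a3 depended on the scaling and on single arrays. With quantile normalization its adjusted p was 0.0761, with the percentile taken over detected probes 0.0843, and with a prior without a trend on level 0.521 (limma). Without replicate 2 it was 0.0563 and without replicate 4 0.204, the latter with an SD of 0.592. With all arrays the SD lay between 1.005 and 1.105 under each setting tried. The array's 75th percentile was also highest on replicate 1 and low on replicate 4, at intensities of 109 and 63.8. The intensity of Slc25a3 on these arrays was 2740 and 292. On replicates 3 and 4 the percentile was 63.7 and 63.8, while the level of Slc25a3 was 3.59 and 2.20. Beyond the other scalings given here, the part of the percentile in the result was not tested. Slc25a3 was read by 1 spot of 1 probe, so no second probe can be set beside it. The gene has 4 RefSeq transcripts, and which of them the probe reads was not examined. RefSeq also lists the pseudogenes Slc25a3-ps1 and Slc25a3-ps2, and signal from such copies cannot be told apart from that of Slc25a3 here.

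**Figure D3:**
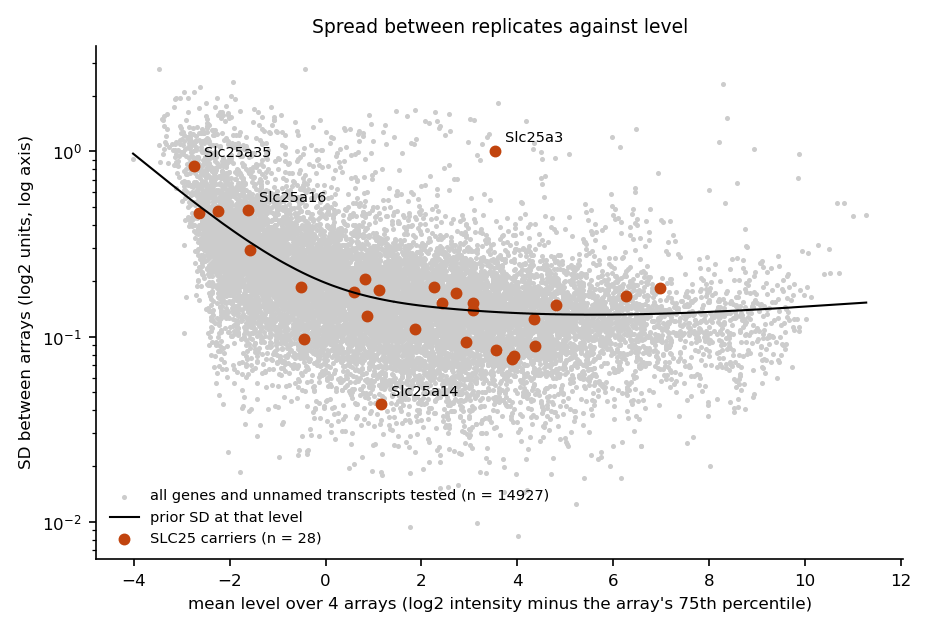
SD between the 4 arrays (vertical axis, log2 units, log scale) against mean level (horizontal axis, log2 intensity minus the array's 75th percentile) for the 14927 genes and unnamed transcripts tested (grey) and the 28 carriers tested (orange). The black line is the prior SD at that level. Slc25a3, with an SD of 1.01, lies far above the line at its level, and Slc25a14, with 0.043, is the carrier with the smallest SD.

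The other carriers of this list with signal on all arrays, Slc25a1, Slc25a10 and Slc25a11, had smaller SDs than Slc25a3. The citrate carrier Slc25a1, which exports citrate for lipid synthesis, had levels of 2.00, 2.42, 2.29 and 2.33 (2.26 ± 0.18, SD, n = 4), lowest on replicate 1. The dicarboxylate carrier Slc25a10, which exchanges malate or succinate for phosphate, had a level of 3.54 ± 0.085. The oxoglutarate carrier Slc25a11, a part of the malate-aspartate shuttle, had 4.80 ± 0.15. All 3 lay within 0.43 log2 units between arrays. Slc25a35, a relative without a settled substrate, had levels of -2.10, -2.08, -2.97 and -3.83 and was well above background on replicates 1 and 2. Slc25a21, which carries oxoadipate and related acids, was so on replicate 3 alone, at -2.00 against -4.40, -4.49 and -4.55, and its second probe on no array. Slc25a34 had no signal.

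Of 8 amino acid carriers with a probe, 5 had signal on all arrays. Slc25a15, the ornithine and citrulline exchanger of the urea cycle, had levels of 1.98, 1.93, 1.85 and 1.73 on the probe used here. Its other probes did not follow: 1 was well above background on 2 arrays and 1 on none. Slc25a22 had a level of -0.46 ± 0.097, with a second probe on no array. Slc25a44, a carrier of branched-chain amino acids, had 3.08 ± 0.15, with a second probe above background on 1 array. For these 3 genes the call of signal therefore rests on 1 probe. Slc25a29, which carries arginine and lysine, had a level of -1.58 ± 0.29 and Slc25a38, which brings in glycine for heme synthesis, 1.12 ± 0.18. The liver-type member Slc25a47, a neighbour of Slc25a29 in the annotation, had no signal, like Slc25a2 and Slc25a18.

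The carnitine-acylcarnitine carrier Slc25a20, which brings fatty acids to beta-oxidation, had levels of 2.95, 3.26, 3.08 and 2.98. Replicate 2 was highest, and the arrays lay within 0.31 log2 units. Slc25a45, listed beside it, had a level of 0.85 ± 0.13.

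Of 7 cofactor carriers with a probe, 6 had signal on all arrays. Slc25a16, tied to coenzyme A supply, had levels of -0.99, -1.57, -1.72 and -2.16, highest on replicate 1 and lowest on replicate 4, the same extremes as Slc25a3 and Slc25a15. Its SD of 0.48 was the second largest of the 25 carriers with signal on all arrays, but it is a dim probe, the prior SD at its level was 0.33, and it did not pass (adjusted p = 0.987, limma). Slc25a17, the peroxisomal member of the family, had a level of 2.71 ± 0.17. The folate and FAD carrier Slc25a32 had -0.52 ± 0.19. Slc25a39, which imports glutathione, had 6.26 ± 0.17, and RefSeq lists 8 pseudogenes of it. Slc25a42, which carries coenzyme A, had no signal on either of its probes.

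Slc25a51, which imports NAD into the matrix, was read by 5 probes, all well above background on all arrays. RefSeq lists the coding copy Slc25a51l1, and signal from it cannot be told apart from that of Slc25a51 here. The highest-signal probe of Slc25a51 had levels of 4.40, 4.28, 4.29 and 4.47 (4.36 ± 0.089, SD, n = 4). The others had 2.47, 2.60, 2.69 and 2.94, then 2.12, 2.13, 2.25 and 2.40, then 1.05, 0.98, 1.10 and 1.28, and last 0.35, 0.70, 0.80 and 0.97. Replicate 4 was highest on 5 of 5 probes, and replicate 1 lowest on 3 of them. None of the 5 passed the variance test with every probe as a feature (lowest adjusted p = 0.987, limma), and the probes share their RNA, so they are 1 measurement of 4 samples. Of the 5 carriers with several probes on all arrays, 3 had the same highest array on each of their probes and 3 the same lowest. The shared lowest array was always replicate 1, and the shared highest was replicate 2 except in Slc25a51. Over named genes with signal on all arrays, 41.3% were lowest on replicate 1 and 47.6% highest on replicate 2. The same count over all genes with several probes was not made.

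**Figure D4:**
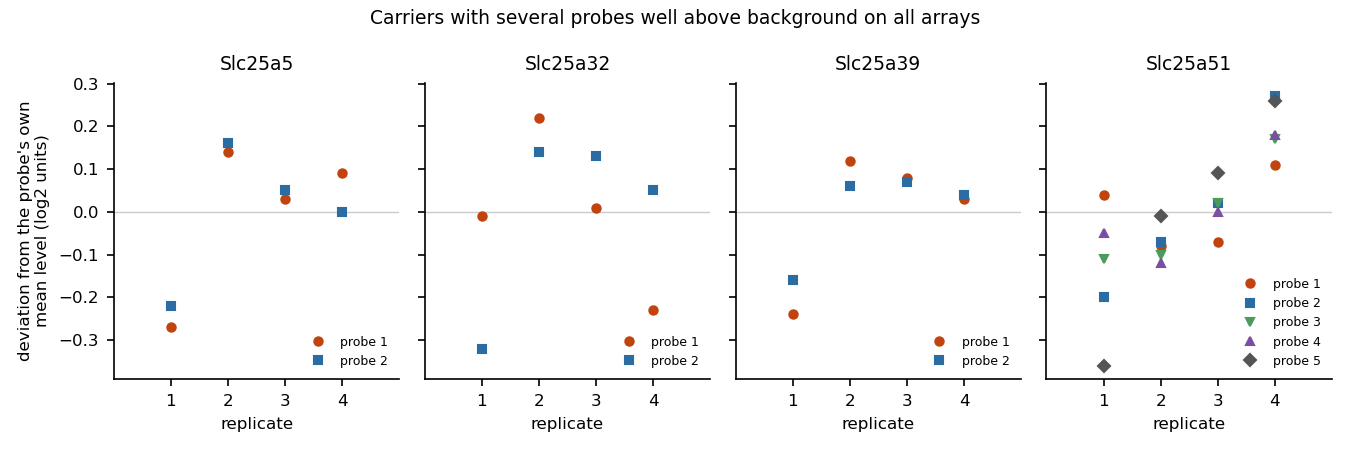
Deviation of each probe from its own mean level (vertical axis, log2 units) on replicates 1 to 4, for 4 carriers with at least 2 probes well above background on all arrays. Each symbol is a probe. All 5 probes of Slc25a51 are highest on replicate 4, and both probes of Slc25a5 and of Slc25a39 are lowest on replicate 1.

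Iron, pyrimidine nucleotides and the relatives of uncoupling proteins complete the family. Slc25a28 had levels of 4.36, 4.36, 4.50 and 4.19, within 0.30 log2 units. Slc25a33, a carrier of pyrimidine nucleotides, had no signal. Slc25a14, known from brain, had levels of 1.14, 1.20, 1.10 and 1.16, with the smallest SD of the 25 carriers at 0.043, and Slc25a30, known from kidney, had 0.83 ± 0.21. Slc25a46, an outer membrane member tied to mitochondrial division, had a level of 2.44 ± 0.15. Slc25a43, without an assigned substrate here, had levels of -2.36, -2.85, -1.78 and -1.95 and was well above background on replicates 2, 3 and 4. Slc25a53 had no signal.

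Across the 25 carriers with signal on all arrays, the median SD was 0.151 log2 units, against 0.141 over all 7952 named genes with such signal. For 21 of the 25 (84.0%) the SD was under 0.2, against 75.2% of these named genes. On replicates 1 to 4 the carriers deviated from their means by a median of 0.0062, 0.12, -0.0014 and -0.084. The same medians over the named genes were -0.050, 0.085, 0.010 and -0.031, so the carriers stood highest on the same array as named genes in general. The lowest median was on replicate 4 for the carriers but on replicate 1 for the named genes. Replicate 1 was the lowest array for 36.0% of the carriers, against 41.3% of the named genes, and the highest for 28.0% against 18.5%. Replicate 2 was the highest array for 14 of the 25 (56.0%, against 47.6% of the named genes) and replicate 4 the lowest for 10 (40.0%, against 34.7%). Nothing particular to the family is drawn from these shares.

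**Figure D5:**
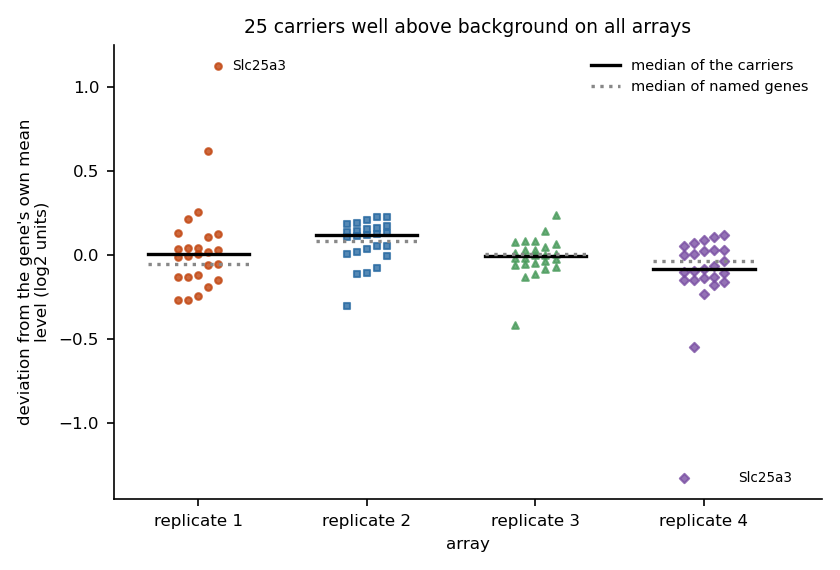
Deviation of each of the 25 carriers from its own mean level (vertical axis, log2 units) on each array, with 1 point per gene. Solid bars are the carriers' medians and dotted bars the medians over the 7952 named genes with signal on all arrays. Slc25a3 stands apart at the top of replicate 1 and at the bottom of replicate 4, and the medians stay between -0.084 and 0.12.

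Genes that work with the carriers were read from lists of 19 genes, all with a probe. Of 5 further family members, Ucp2, the uncoupling protein of immune cells, had a level of 5.04 ± 0.16, and the outer membrane homologs Mtch1 and Mtch2 had 7.79 ± 0.14 and 2.32 ± 0.086. Ucp1, the form of brown fat, was well above background on 1 array and Ucp3 on 3. Of all named protein-coding genes with a probe, 49.0% had signal on all arrays. The machinery that inserts carriers into the inner membrane had such signal for 7 of 7 genes. They were the channel gene Timm22 (3.58 ± 0.16), its partners Timm29 (4.40 ± 0.16) and Agk (1.48 ± 0.17), the chaperones Timm9 (2.35 ± 0.12), Timm10 (3.28 ± 0.12) and Timm10b (3.69 ± 0.20), and the receptor Tomm70 (3.27 ± 0.070).

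Other routes for metabolites and ions into mitochondria also had signal on all arrays for 7 of 7 genes, against the same 49.0% of named protein-coding genes. The subunits of the pyruvate carrier, Mpc1 and Mpc2, had levels of 4.59 ± 0.14 and 5.37 ± 0.070. The outer membrane channels Vdac1, Vdac2 and Vdac3 had 6.47 ± 0.060, 6.93 ± 0.18 and 5.82 ± 0.054. The calcium uniporter Mcu had -1.61 ± 0.13. Of the 18 genes of these lists that were tested, 0 passed the variance test (lowest adjusted p = 0.987, limma), and 0 had an unadjusted p under 0.05.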

How the data were processed

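RNA of 4 replicates of exposed NR8383 cells was measured on 1-colour arrays, all on 1 slide as far as the names of the deposited data show. The deposited files hold the intensity of each spot on a linear scale, computed by Agilent Feature Extraction 11.0.1.1, as the submitters' processing notes say. Per the file headers, the processed intensity had the background subtracted and spatial trends removed on each array, and was not normalized between arrays. Slide position and replicate cannot be told apart.

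Here log2 processed intensity was averaged over a probe's spots, leaving out control and non-uniform spots, and the 75th percentile of each array was subtracted. Accessions without versions were matched to RefSeq genes of GRCr8, which named 21109 of 45598 probes, each with 1 gene, and left 24489 unnamed. A probe was well above background if at least 50% of its spots were so marked, and a gene if any of its probes was. A gene's level is that of its probe with the highest mean. The variance test took the 14927 genes and unnamed transcripts with signal on at least 2 arrays. It compared each residual variance of an intercept fit with a prior fitted as a trend on level (squeezeVar), by a one-sided F test adjusted by Benjamini-Hochberg over all of them (limma 3.58.1, R 4.3.3, threshold 0.05). The test was tested on simulated data, where it recovered few genes unless their spread was far above the prior. The alternatives were other scalings, normexp background correction with offset 50 (on median spot intensity, as the files used here hold no mean), no filter on dim probes, other priors, the mean over probes, other detection marks and each replicate left out.

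The members, lists and tests were chosen with earlier results of these data known. Named with the value on each array are members past the variance test or with an unadjusted p under 0.05, with 1 array far from the other 3 or with signal on some arrays, and the first of each substrate list. Slc25a2 and Slc25a33, the first of their lists by number, had no signal and are not given on each array. Further genes were given array by array after their values were seen, namely Slc25a5, Slc25a15, Slc25a37, Slc25a51 and the second probes. Single levels of Slc25a2 and Slc25a23 were added in the same way. Sequences shown were also chosen so. The motif letters searched are in the report except the NRF1 consensus, which is named only. The labels call the samples biological replicates. A few genes are counted in the totals but not reported here by name.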

Additional observations from a re-analysis of the deposited data

Results flagged for a closer look

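Among the 33 probes of carriers with signal on all arrays, 2 had 1 array far from the other 3. The gap to the nearest array, divided by the whole range, was above Dixon's critical value for 4 samples. Chance alone flags about 1 in 20 such groups, and the share flagged over all probes was not counted. Of named genes with signal on all arrays, 47.6% were highest on replicate 2 and 41.3% lowest on replicate 1. The 2 flagged probes went in these same directions. Slc25a24, an exchanger of ATP-Mg for phosphate, had a ratio of 0.888, because replicate 2 stood at 4.05 and the others between 3.89 and 3.90. The second probe of Slc25a39, the glutathione importer, had a ratio of 0.896, with replicate 1 at 5.91 and the others between 6.11 and 6.14. The brighter Slc25a39 probe was also lowest on replicate 1, at 6.02 against 6.29 to 6.38, with a ratio of 0.748.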

How the results depend on the processing

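The number of carriers past the variance test was 1, Slc25a3. It was 0 with the 75th percentile over detected probes, with quantile normalization and with a prior without trend (limma), where 1, 1 and 2 carriers had an unadjusted p under 0.05. It ranged from 0 to 1 when each replicate was left out, and was 1 under the other settings. Over all genes and unnamed transcripts, 0, 1 and 0 passed under the same 3 settings against 69 as reported, and 237 with normexp, 356 without the filter on dim probes and 207 with a robust prior. For Slc25a3 the adjusted p over all settings lay between 5.01e-08 and 0.521. The count of 25 carriers with signal on all arrays lay between 25 and 30 under the alternative marks and without each replicate. No paired analysis was possible because the labels give 1 group. Dim probes limit what can be said of carriers without signal on all arrays, and cells without particles were not analysed here.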
